A study of Mus musculus with 6 samples.

Results

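Zfp42, Tdgf1, Utf1, Fbxo15, Gdf3, Eras, Tcl1 and Zfp296 are 8 genes active in mouse embryonic stem cells and commonly counted as targets of the transcription factors Oct4 (gene Pou5f1) and Sox2. They were taken by name from the table of gene expression, and all 8 were present among its 12331 gene rows. All are protein-coding genes in RefSeq (GRCm38.p6): Zfp42 lies at chr8:43295067-43307009, Tdgf1 at chr9:110939608-110946158, Utf1 at chr7:139943856-139945112, Fbxo15 at chr18:84934552-84981476, Gdf3 at chr6:122605403-122610087, Eras at chrX:7924276-7928607, Tcl1 at chr12:105216753-105222737 and Zfp296 at chr7:19577287-19580656. The table held 6 RNA-seq libraries of the established line E14tg2a, mouse embryonic stem cells grown in serum with LIF, the cytokine that keeps them undifferentiated. All libraries started from 10 pg of total RNA prepared from these cells, an amount like that of a single cell, which was copied with a tagged oligo(dT) primer and amplified with 20 PCR cycles. In 3 libraries, numbered 1 to 3, hyperactive Tn5 transposase cut and tagged the cDNA in one reaction (tagmentation), and in 3 others, also numbered 1 to 3, the cDNA was sheared by sonication and ligated to adaptors. The libraries were technical replicates, so that every p-value reflects the spread of libraries, which may be technical, rather than of cultures. The comparison asks how both ways of making a library differ for cDNA of single-cell amount.

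Oct4 and Sox2 bind side by side to composite DNA elements near many genes of pluripotent cells, and the loss of either factor ends the undifferentiated state. Among their targets, Zfp42 (Rex1) and Zfp296 encode zinc finger proteins and Utf1 a chromatin-bound protein of undifferentiated cells. Gdf3 is a secreted ligand of the TGF-beta family, and Tdgf1 (Cripto) is the cell-surface co-receptor used by Nodal and related ligands. Eras is a Ras-like protein that is constantly active and feeds the PI3K pathway, and Tcl1 is a co-activator of the kinase Akt in that pathway. Fbxo15 encodes an F-box protein, the kind of subunit that recruits substrates to SCF ubiquitin ligases, and its locus has served as a drug-selection reporter for reprogrammed cells.

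RefSeq promoter windows (GRCm38.p6, from 250 bases before to 50 bases after a start site) were matched for 6 of the 8 genes, all but Fbxo15 and Gdf3. Both strands were searched for the octamer ATGCAAAT, the letters bound by Oct4, and it was found in the windows of Zfp42 and Zfp296. It was present in 1.74% of all 32851 windows and in 1.26% of the 5707 windows of genes tested below. Both windows are shown because they hold this octamer; among members, Zfp296 varied most between libraries, while Zfp42 was among those that varied least. The Zfp42 window lies at chr8:43306960-43307259 on the minus strand, and the Zfp296 window at chr7:19577037-19577336 on the plus strand. The octamer, read here on the opposite strand, is in capitals and begins 186 bases upstream of the start in Zfp42 and 111 bases upstream in Zfp296.
Zfp42: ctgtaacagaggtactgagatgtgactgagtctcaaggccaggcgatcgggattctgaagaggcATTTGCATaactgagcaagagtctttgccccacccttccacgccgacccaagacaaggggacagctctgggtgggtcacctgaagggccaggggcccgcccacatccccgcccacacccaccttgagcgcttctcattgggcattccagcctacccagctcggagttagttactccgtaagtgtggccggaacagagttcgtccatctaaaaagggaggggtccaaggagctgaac
Zfp296: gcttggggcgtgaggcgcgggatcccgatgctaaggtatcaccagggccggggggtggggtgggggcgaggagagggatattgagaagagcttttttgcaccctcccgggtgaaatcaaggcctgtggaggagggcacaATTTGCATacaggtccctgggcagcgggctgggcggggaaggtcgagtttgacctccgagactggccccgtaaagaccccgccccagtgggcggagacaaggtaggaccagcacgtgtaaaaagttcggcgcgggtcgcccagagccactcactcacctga
The octamer with 1 free base, ATGCNAAT, which includes the first motif, added no further member and was in 3.15% of all windows. The core of the composite Sox-Oct element, TTGTNATGC, was in none of the 6 windows and in 0.731% of all windows. Sox letters, ACAATG, were in the window of Eras alone and in 12.6% of all windows. A GC box, GGGCGG, searched for after the data were seen, was in all 6 windows, against 35.7% of all windows and 66.3% of the windows of tested genes. Elements outside these windows, such as the known Sox-Oct element downstream of Utf1, were not searched.

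The 6 libraries had 18852822 to 34681566 alignments. Values were RPKM, reads scaled to the length of the gene and to the alignments of the library, and 5426 to 6807 genes reached 1 RPKM in a library. Libraries of the same number deviated together across genes, with correlations of 0.934 to 0.969 between methods, and are treated as pairs where stated. Among 7 defining markers of embryonic stem cells, 6 were at 1 RPKM or more in all libraries, and Nanog was the exception, with a listed value of 0 in number 3 by either method. The summed RPKM of the 7 markers was 1383 to 2238 in tagmentation libraries and 883 to 2403 in sonication libraries. Of 4 feeder fibroblast markers in the table, the collagen genes Col1a1, Col1a2 and Col3a1 were under 1 RPKM in all libraries, and the 4 summed to 0.126 to 9.55 RPKM after tagmentation and 0.402 to 12.1 RPKM after sonication. The other marker, Thy1, had 9.55, 1.95 and 0.0831 RPKM in tagmentation libraries 1 to 3 and 12.1, 2.15 and 0.0611 RPKM in sonication libraries 1 to 3. T (brachyury), the mesoderm marker, had 0.209, 83.2 and 12.6 RPKM in tagmentation libraries 1 to 3 and 0.145, 61.3 and 7.08 RPKM in sonication libraries 1 to 3. Trophoblast markers summed to at most 5.32 RPKM after tagmentation and 2.89 RPKM after sonication, with Cdx2 at 0.0616 RPKM or less. Eomes had 5.29 RPKM in tagmentation library 2 and 2.78 RPKM in sonication library 2, and 0.129 RPKM or less in the other libraries. Neuroectoderm markers summed to 14.3 to 51.1 RPKM after tagmentation and 32.5 to 47.8 RPKM after sonication, mostly from Tubb3, with Pax6 at 0.0535 RPKM or less, and the 5 endoderm markers were not analysed here. The mesoderm list rests on T alone, since its other 3 markers were not analysed here either. These marker levels differed between numbers, as the members did, and their part in the members' differences was not tested. In such prepared RNA, fewer cells that express a gene and less RNA per cell cannot be told apart. The numbers were technical replicates of 10 pg of RNA, so their differences are not read here as differences between cells.

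Each of the 8 genes reached 1 RPKM in 4 to 6 libraries, and all 8 thus passed the filter for testing, 1 RPKM in 3 libraries. By mean RPKM, a scale per gene length, Utf1 stood first with 468 RPKM, ranked 113 among all gene rows, followed by Zfp42 with 281 RPKM. Gdf3 averaged 90.8 RPKM, Tdgf1 69.7 RPKM and Tcl1 44.5 RPKM. Fbxo15 averaged 35.7 RPKM, Zfp296 31.4 RPKM and Eras 12.0 RPKM. Utf1 was above Zfp42 in 5 of 6 libraries, and Zfp42 above Gdf3 in all 6. Below these, neighbours in the order changed places between libraries: Gdf3 was above Tdgf1 in 4, Tdgf1 above Tcl1 in 3, Tcl1 above Fbxo15 in 4, Fbxo15 above Zfp296 in 2 and Zfp296 above Eras in 4 of 6 libraries.

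**Figure D1:**
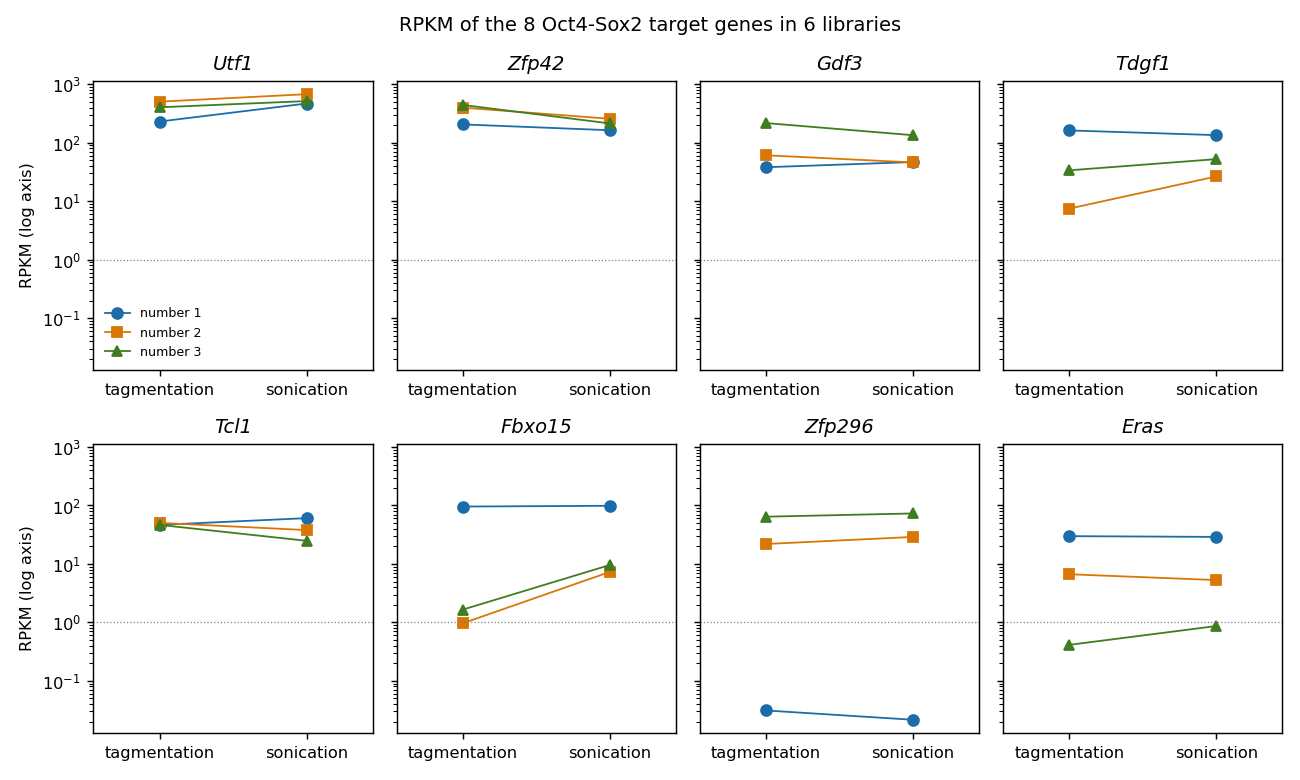
RPKM (log axis) of each gene after tagmentation (left) and sonication (right), with a line joining libraries of the same number and a dotted line at 1 RPKM. The 3 numbers lie far apart for Eras, and number 1 alone stands far apart for Zfp296, where it is low, and Fbxo15, where it is high. The numbers lie within 1 decade for Utf1, Zfp42, Gdf3 and Tcl1.

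Between methods, no member was called different in the test on all 6 libraries, and the tagmentation and sonication libraries of every member overlapped. With the replicate number as a block, 1 of 8 was called, Fbxo15, which was lower after tagmentation. The test was limma on log2(RPKM + 1), with Benjamini-Hochberg adjustment over 6327 genes and a threshold of 0.05; differences are tagmentation minus sonication on this scale, which understates the change of low genes. Without the block it called 0% of the genes tested (18 genes, 0.284%, at an unadjusted p under 0.05, none of them a member), and 2.4% of them did not overlap between methods. With the block it called 3.29%, of which 1.58% of the genes tested were higher after tagmentation and 1.71%, in the direction of Fbxo15, lower. The median difference of the 8 members was -0.11, with 3 above 0 and 5 below 0, against 0.028 over all genes tested. In the blocked fit a gene's spread came almost wholly from other genes of similar level (210 prior degrees of freedom, 2 residual), so that its intervals hardly reflect how the 3 pairs of that gene vary.

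**Figure D2:**
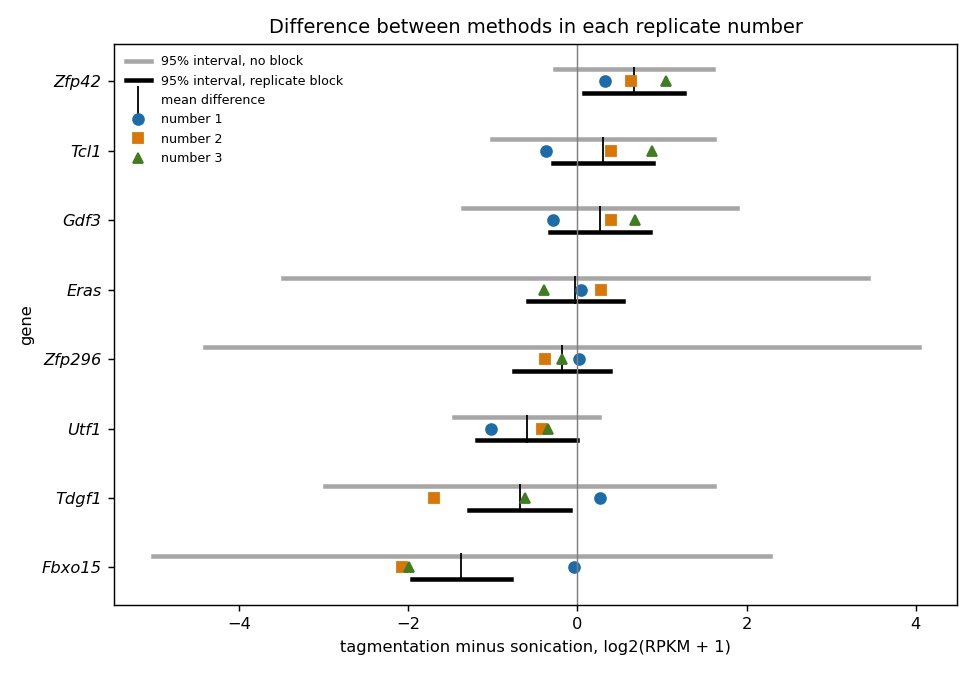
Difference between methods (tagmentation minus sonication, log2(RPKM + 1)) of each gene in replicate numbers 1 to 3 (symbols), with their mean (vertical tick) and its 95% interval without the block (grey) and with it (black). Zfp42 lies above 0 and Utf1 and Fbxo15 lie below 0 in all 3 numbers, and the grey interval includes 0 for every gene.

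Zfp42, whose protein is degraded through the ubiquitin ligase Rlim, had 206, 399 and 444 RPKM in tagmentation libraries 1 to 3 and 164, 258 and 214 RPKM in sonication libraries 1 to 3. It was thus higher after tagmentation in each number, while tagmentation library 1 lay within the range of the sonication libraries. The values came from 7808, 24884 and 27714 reads in tagmentation libraries and 8946, 10206 and 7281 reads in sonication libraries. The ratio of tagmentation to sonication was 1.26 in number 1 (95% exact interval 1.22 to 1.30), 1.55 in number 2 (1.51 to 1.59) and 2.07 in number 3 (2.02 to 2.12); such intervals cover counting error only. These intervals did not overlap between numbers. Over the 3 numbers the difference was 0.67 (95% interval -0.26 to 1.60 without the block, 0.077 to 1.26 with it), with limma adjusted p of 1.00 and 0.224. Being higher in 3 of 3 numbers was shared with 19.6% of the genes tested.

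Utf1 had 231, 505 and 405 RPKM in tagmentation libraries 1 to 3 and 470, 679 and 518 RPKM in sonication libraries 1 to 3. It was lower after tagmentation in each number, most so in number 1, and tagmentation library 2 lay within the sonication range. The ratio was 0.492 in number 1 (0.477 to 0.507), 0.745 in number 2 (0.730 to 0.760) and 0.782 in number 3 (0.763 to 0.801). The difference was -0.60 (95% interval -1.46 to 0.26 without the block, -1.19 to -0.0077 with it), with limma adjusted p of 1.00 and 0.289. Being lower in 3 of 3 numbers was shared with 14.2% of the genes tested. The Utf1 transcript had 63.5% G and C bases, above 99.1% of the genes tested that could be matched to a GENCODE transcript, and that of Zfp42 46.4%, above 25.1% of them. The median of these genes was 51.3%. Fbxo15, Tdgf1, Eras and Zfp296, with mean differences below 0 like Utf1, had 44.1%, 45.3%, 53.4% and 59.5%. Gdf3 and Tcl1, with mean differences above 0 like Zfp42, had 49.5% and 52.1%. The part of base composition in the method differences was not tested.

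Zfp296 gave the widest range of the 8 genes. It had 0.0311, 21.9 and 64.3 RPKM in tagmentation libraries 1 to 3 and 0.0216, 29.0 and 73.1 RPKM in sonication libraries 1 to 3. Number 1 therefore stood near 0 in both methods, number 2 between and number 3 highest. In number 1 the gene had 1 read after tagmentation among 21007424 alignments and 1 read after sonication among 30296557 alignments. In number 2 it had 1162 reads after tagmentation and 976 after sonication, and in number 3 it had 3413 reads after tagmentation and 2109 after sonication. Tagmentation library 2 stood 705 times above library 1 (95% exact interval 126 to 27880), and sonication library 2 stood 1344 times above library 1 (241 to 53135). The methods differed by -0.19 (95% interval -4.41 to 4.04 without the block, -0.76 to 0.38 with it), with limma adjusted p of 1.00 and 0.815.

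Of the signalling pair at the cell surface, the ligand Gdf3 had 38.2, 61.1 and 217 RPKM in tagmentation libraries 1 to 3 and 46.9, 46.1 and 135 RPKM in sonication libraries 1 to 3. Both methods were highest in number 3. The co-receptor Tdgf1 had 163, 7.48 and 33.8 RPKM in tagmentation libraries 1 to 3 and 135, 26.6 and 52.5 RPKM in sonication libraries 1 to 3. Both methods were highest in number 1, lower in number 3 and lowest in number 2, so that the ligand and the co-receptor peaked in different numbers. For Tdgf1 the ratio of tagmentation to sonication was 1.20 in number 1 (1.16 to 1.24), 0.282 in number 2 (0.253 to 0.313) and 0.643 in number 3 (0.605 to 0.684), and thus changed side between numbers. For Gdf3 it was 0.815 in number 1 (0.767 to 0.865), 1.33 in number 2 (1.26 to 1.40) and 1.61 in number 3 (1.56 to 1.66). Neither was called: Tdgf1 differed by -0.69 (SE 1.04, and 0.30 with the block; limma adjusted p 1.00 and 0.210) and Gdf3 by 0.27 (SE 0.73 and 0.30; adjusted p 1.00 and 0.724).

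Eras and Tcl1, which act on PI3K and Akt, were set apart by their spread. Eras had 29.9, 6.66 and 0.413 RPKM in tagmentation libraries 1 to 3 and 29.0, 5.30 and 0.866 RPKM in sonication libraries 1 to 3. Number 1 was highest and number 3 lowest in both methods, and methods lay close in numbers 1 and 2. Tcl1 had 46.6, 50.4 and 46.6 RPKM in tagmentation libraries 1 to 3, with a coefficient of variation of 4.61%, and 60.8, 37.9 and 24.9 RPKM in sonication libraries 1 to 3, with a coefficient of variation of 44.1%. Its ratio of tagmentation to sonication was 0.767 in number 1 (0.717 to 0.819), 1.33 in number 2 (1.24 to 1.43) and 1.87 in number 3 (1.72 to 2.05). Neither was called: the difference was -0.026 for Eras (95% interval -0.59 to 0.54 with the block, adjusted p 0.977 in limma) and 0.30 for Tcl1 (-0.29 to 0.89, adjusted p 0.686). Both had an adjusted p of 1.00 without the block.

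Fbxo15, the member called with the block, had 95.9, 0.965 and 1.65 RPKM in tagmentation libraries 1 to 3 and 98.9, 7.31 and 9.60 RPKM in sonication libraries 1 to 3. Number 1 was level between methods, and numbers 2 and 3 were low in both methods and lower after tagmentation. The reads were 3195, 53 and 91 in tagmentation libraries and 4751, 255 and 287 in sonication libraries. The ratio of tagmentation to sonication was 0.970 in number 1 (0.927 to 1.01), 0.132 in number 2 (0.0964 to 0.178) and 0.172 in number 3 (0.135 to 0.219). The difference was -1.37 (SE 1.64 without the block, limma adjusted p 1.00; SE 0.30 with it, adjusted p 0.00152). With the block the call ended without replicate 2 (adjusted p 0.999), without replicate 3 (0.549), with a pseudocount of 0.1 (0.263), with median-ratio scaling (0.0552) and with quantile normalization (0.111).

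Other genes high in number 1 were described beside Fbxo15, as a set defined after the data were seen and with no test. It held the genes with a mean log2(RPKM + 1) in number 1 at least 3 above that of both other numbers, an 8-fold difference on this scale. With no filter on low values and without Fbxo15 there were 827 such genes. Of these, 47.3% were lower and 5.08% higher after tagmentation in both numbers 2 and 3. Of all genes tested, each of which passed the filter, 24.9% were lower in both. Most of the 827 genes did not pass, so this share is no like background for them. Tagmentation libraries 2 and 3 held a median of 0.167% and 0.173% of the RPKM of tagmentation library 1, and sonication libraries 2 and 3 held 0.987% and 0.865% of that of sonication library 1. For Fbxo15, which passed the filter, these shares were 1.01% and 1.73% after tagmentation and 7.39% and 9.71% after sonication. They were higher than those of the unfiltered set, most of whose genes did not pass. Over the 320 genes that passed, Fbxo15 included, the shares were 1.17% and 1.09% after tagmentation and 6.18% and 6.51% after sonication. These shares are shaped by the filter, so their nearness to those of Fbxo15 is not read as a result. The filter bears on this pattern: of the 319 other genes of the set that passed it, 49.8% did so through a sonication library of number 2 or 3 with no tagmentation library of these numbers at 1 RPKM, so counts over the genes that passed are not given. What sets the level of such genes in numbers 2 and 3 was not tested.

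**Figure D3:**
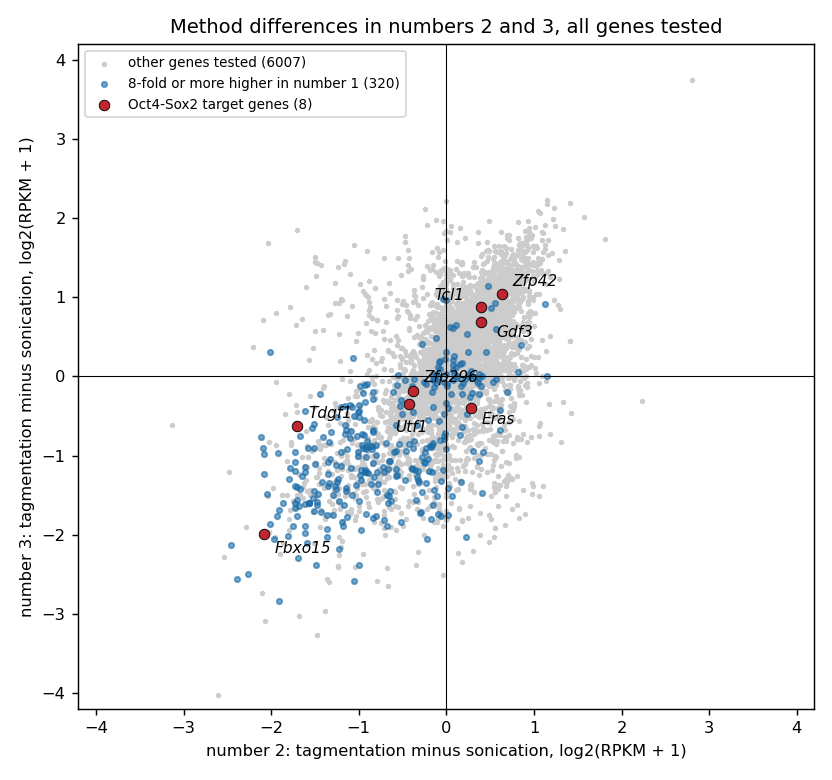
Difference between methods (tagmentation minus sonication, log2(RPKM + 1)) in number 2 (horizontal) and number 3 (vertical) for all genes tested (grey; 1 gene lies outside the axes), the 320 of them that stood at least 8-fold higher in number 1 (blue), a set shaped by the filter on low values, and the 8 members (red). Fbxo15 and Tdgf1 lie in the lower left, and Zfp42, Tcl1 and Gdf3 in the upper right.

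With method as a term, 5 of 8 members differed between numbers, namely Tdgf1, Fbxo15, Gdf3, Eras and Zfp296, and 4 of them by 4-fold or more on the log2(RPKM + 1) scale. The background was high: 88.1% of all genes tested were called in this test, and 58.5% were called at 4-fold or more. The test takes the difference between methods within a number as its error, drawn almost wholly from other genes (210 prior degrees of freedom, 2 residual). Its p-values set the numbers against that error only and do not measure the spread of independent samples. The largest difference between number means was 6.08 for Zfp296 and 4.61 for Fbxo15, then 4.23 for Eras, 3.29 for Tdgf1 and 1.99 for Gdf3 (limma's moderated F test, adjusted p 2.18e-07 or less in each). Zfp42 (range 0.80, adjusted p 0.0618), Utf1 (0.83, 0.0897) and Tcl1 (0.63, 0.243) were not called, and with median-ratio scaling or quantile normalization Zfp42 and Utf1 were called as well. The median range was 2.64 over members and 2.38 over all genes tested.

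Members did not keep to 1 pattern over the numbers. By the mean log2(RPKM + 1) of both methods, number 1 was highest for Tdgf1, Fbxo15, Eras and Tcl1, number 2 for Zfp42 and Utf1, and number 3 for Gdf3 and Zfp296. Of all genes tested, 39.7% were highest in number 1, 38.2% in number 2 and 22.1% in number 3. The split is thus read as no result about the members, and sharing a highest number is common. Both methods put the numbers in the same order for 5 of 8 members, against 72.6% of the genes tested; the exceptions were Zfp42, Gdf3 and Tcl1. Over the 6 libraries, which are 3 pairs of like libraries, the 28 member pairs had Pearson correlations of log2(RPKM + 1) from -0.95 (Eras and Zfp296) to 0.92 (Tdgf1 and Fbxo15), with a median of -0.27. Of these pairs, 53.6% were below 0 and 3.57% at 0.9 or more, against 47.8% and 8.05% of all pairs of genes tested, whose median was 0.056. These correlations describe 6 libraries and carry no test.

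**Figure D4:**
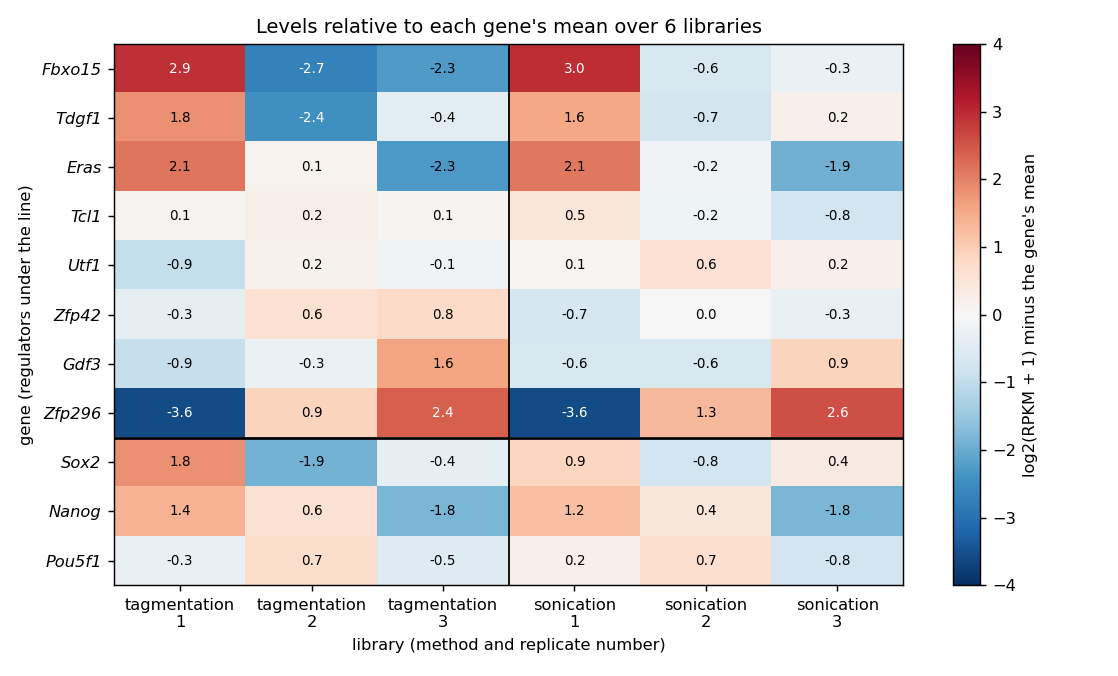
Log2(RPKM + 1) minus the gene's mean over 6 libraries (colour and printed value) for the 8 members above the line and the regulators Sox2, Nanog and Pou5f1 under it, with tagmentation libraries left of sonication libraries. Columns of the same number look alike between methods, and Zfp296 runs opposite to Eras (correlation -0.95).

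The regulators varied between the same libraries. Pou5f1 had 127, 260 and 111 RPKM in tagmentation libraries 1 to 3 and 182, 251 and 91.5 RPKM in sonication libraries 1 to 3, highest in number 2. Sox2 had 61.6, 3.79 and 12.5 RPKM in tagmentation libraries 1 to 3 and 30.7, 9.33 and 21.5 RPKM in sonication libraries 1 to 3, in the order of Tdgf1. The correlation of Sox2 was 0.98 with Tdgf1 and 0.89 with Fbxo15, and -0.66 with Zfp296, over the 6 libraries. Nanog, another core factor, had 8.39, 4.48 and 0 RPKM in tagmentation libraries 1 to 3 and 7.16, 3.85 and 0 RPKM in sonication libraries 1 to 3, in the order of Eras (correlation 0.95), and its correlation with Gdf3 was -0.96. Pou5f1 had no correlation outside -0.62 to 0.48 with any member. None of the 3 was called between methods, with or without the block. With the block and number 1 left out, 1 was called, as were 1051 of all 6327 genes tested. All 3 differed between numbers.

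The genes closest to each member were sought among 3659 named genes with a mean of at least 10 RPKM, by the same correlation over 6 libraries. Fbxo15 was followed most closely by Cdc5l (0.998), Ube2d2 (0.998) and Eif4e (0.997), Eras by Psma4 (1.00), Ubl5 (0.999) and Prr13 (0.998), and Zfp296 by Ccdc61, Tmem151a (0.998 each) and Iscu (0.997). The closest to Tdgf1 were Rpl39 (0.995), Hat1 and Cdv3, to Gdf3 Obfc2b (0.997), Trh and Serpinh1, and to Utf1 Rplp2 (0.993), Rplp2-ps1 and Hspbp1. For Zfp42 they were Tsc22d1 (0.987), Scaf11 and Nol7, and for Tcl1 Numa1 (0.993), Cct5 and Rps6. With so few libraries such values were common: a correlation of 0.95 or more was reached by 244 genes for Eras (6.67%), 188 for Zfp296 and 150 for Fbxo15, against 14 for Tcl1 (0.383%), 25 for Zfp42 and 29 for Utf1. In number 1, where Zfp296 had 1 read in each library, Ccdc61 and Tmem151a had listed values of 0 by either method.

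Other genes of the same network were described from lists. Of 15 other Oct4-Sox2 targets, all were tested, 9 had a difference above 0 and 6 below 0, with a median of 0.17, and none was called without the block. With the block 1 was called, Lefty1, an inhibitor of Nodal (-0.95, SE 0.30, limma adjusted p 0.0478), with 26.2, 50.9 and 0.449 RPKM in tagmentation libraries 1 to 3 and 40.0, 60.9 and 4.79 RPKM in sonication libraries 1 to 3. Between numbers 13 of the 15 were called, 6 by 4-fold or more, with Trim28 and Klf2 the exceptions. With 88.1% of all genes tested called between numbers and 58.5% at 4-fold or more, this count and those of the lists that follow are read as no result about the lists. Nr0b1, an orphan nuclear receptor, had 9.95, 76.6 and 347 RPKM in tagmentation libraries 1 to 3 and 7.93, 59.7 and 180 RPKM in sonication libraries 1 to 3, in the order of Zfp296. Fgf4, a growth factor with a known Sox-Oct element, had 29.5, 18.5 and 4.37 RPKM in tagmentation libraries 1 to 3 and 39.1, 14.4 and 4.34 RPKM in sonication libraries 1 to 3, in the order of Eras. The Fgf4 and Nr0b1 values were chosen for print after they were seen. The most abundant targets were Dppa5a, with a mean of 1047 RPKM, and Trim28, with 321 RPKM.

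Among 12 tested genes of 15 others associated with embryonic stem cells, 6 had a difference above 0 and 6 below 0 (median 0.070), and 1 was called with the block, Trap1a (-1.09, SE 0.30, limma adjusted p 0.0225). Trap1a had 147, 7.63 and 1.52 RPKM in tagmentation libraries 1 to 3 and 113, 16.9 and 14.1 RPKM in sonication libraries 1 to 3, which like Fbxo15 was low in numbers 2 and 3 and lower there after tagmentation. Slc2a3, a glucose transporter with a mean of 202 RPKM, and Tdh, threonine dehydrogenase with 125 RPKM, were the most abundant and were not called between methods. Between numbers 10 of the 12 were called.

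Many pathway partners were too low to be tested. Of 12 listed genes of Nodal, Gdf3 and Cripto signalling, 11 were in the table and 5 passed the filter. None of these was called between methods, with or without the block, and all 5 were called between numbers. With the block and quantile normalization 1 was called between methods, as were 476 of all 6327 genes tested. Acvr2b, a type II receptor for activin-like ligands, averaged 30.5 RPKM and was highest in number 3 in both methods, like Gdf3. Foxh1, a transcription factor of this pathway, had 0.158, 62.3 and 13.9 RPKM in tagmentation libraries 1 to 3 and 0.355, 74.5 and 13.1 RPKM in sonication libraries 1 to 3. Of 13 genes of the PI3K and Akt pathway, 12 were in the table and 6 passed the filter, of which none was called between methods and all 6 were called between numbers. Akt1, the kinase that Tcl1 binds, had 2.96, 1.00 and 33.2 RPKM in tagmentation libraries 1 to 3 and 5.01, 1.84 and 36.2 RPKM in sonication libraries 1 to 3. Rheb, an activator of mTOR with the highest mean of that list, averaged 25.9 RPKM.

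All 5 listed genes related to SCF ligases were tested. Skp1a, the adaptor that binds F-box proteins, named after its values were seen, had 158, 26.3 and 1.88 RPKM in tagmentation libraries 1 to 3 and 113, 27.1 and 15.4 RPKM in sonication libraries 1 to 3, and was highest in number 1 as Fbxo15 was. None of the 5 was called between methods, and all 5 were called between numbers. Nedd8, the ubiquitin-like modifier of cullins, averaged 106 RPKM and Rbx1, the RING subunit, 62.6 RPKM. Of 4 partners and relatives of Zfp42, 3 were tested. Yy1, a zinc finger factor related to Zfp42, was called higher with the block (1.07, SE 0.29, limma adjusted p 0.0199), with 35.3, 26.7 and 45.6 RPKM in tagmentation libraries 1 to 3 and 21.1, 12.2 and 16.3 RPKM in sonication libraries 1 to 3. Yy1 was thus higher after tagmentation in every number and without overlap, as 2.4% of the genes tested were without overlap in either direction. Zfp57 averaged 20.6 RPKM and was not called. The calls of Lefty1, Trap1a and Yy1 ended when number 2 or number 3 was left out and with a pseudocount of 0.1, where each of their lists had 0 calls, and those of Lefty1 and Trap1a also ended with a pseudocount of 5 or median-ratio scaling. With quantile normalization the list of Trap1a had 0 calls. When number 1 was left out, calls were more numerous, with 3 among the other Oct4-Sox2 targets, 5 among the other embryonic stem cell genes and 2 among the partners and relatives of Zfp42. Of all 6327 genes tested, 1051 were called there, so these counts are read as no result about the lists.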

How the data were processed

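The authors deposited 1 table of RPKM values with a column for each library and, per the file headers, its alignment total. Partek, CASAVA 1.7.0 and mm9 are named, without roles, in the submitters' processing notes. Which aligner and annotation were used, and how multiply matching reads were counted, is not given in the sources used here. Per the labels' protocols, tagmentation used 100 ng of cDNA at 55 °C for 5 min and 13 library PCR cycles. One label calls the input a single cell lysate, while the protocol describes 10 pg of prepared total RNA.

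Libraries were grouped by their titles. Values were tested as log2(RPKM + 1) in the 6327 genes that reached 1 RPKM in 3 of 6 libraries, with limma 3.58.1 in R 4.3.3 (eBayes with a trend, two-sided, Benjamini-Hochberg adjustment, threshold 0.05). The method was the only term; a fit with the replicate number as a block was an alternative. Pairing was checked in the data, since the labels do not say that libraries of a number share cDNA. Libraries' deviations from their method's mean had correlations of 0.952, 0.969 and 0.934 within numbers 1 to 3. Across numbers they were -0.175 or less, but a method's deviations cancel out over its 3 libraries, which pulls these values negative. The log2(RPKM + 1) values themselves had correlations of 0.958 to 0.977 within numbers and 0.482 to 0.705 across numbers. The numbers were thus taken as pairs. Differences between numbers were tested by the moderated F test with the method as a term. The code of the fits was tested on simulated data, whose outcome is not used here.

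Reads were recovered from the steps of the RPKM values: 1 gene length that made all 6 values whole (within 0.002 reads beyond the rounding of the file) was found for 73.8% of 500 tested genes, against 1.2% when the alignment totals were moved by 1 library. It was found for all members except Eras. Ratios of reads have 95% exact binomial intervals. Amplified reads carry no molecular identifiers, so these intervals cover counting error only. At the recovered lengths 3 reads were worth 0.0410 to 0.137 RPKM in the members, and of the values of the 7 members with a recovered length only those of Zfp296 in number 1 were below this; no such limit was computed for Eras.

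The members and gene lists were chosen with earlier results of these data known. Named were all members, the 3 genes most correlated with each (mean of at least 10 RPKM, leaving out predicted genes), the regulators, and of each list the called genes and the 2 highest by mean RPKM; Fgf4, Nr0b1 and Skp1a were added after their values were seen. Promoter windows and positions are RefSeq's on GRCm38.p6, while the submitters' notes name mm9, so they serve for sequence and position only. Base composition was that of the longest protein-coding GENCODE M21 transcript, matched for 87.9% of the genes tested. Symbols were matched as the file gives them, with older symbols for some. Alternatives were other pseudocounts, filters, scalings, no trend and leaving out libraries. Python 3.11.15, pandas 2.3.3 and scipy 1.17.1 were used. Pseudogenes of Tdgf1 and Zfp42 exist, and reads shared with them could be counted in either gene.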

Additional observations from a re-analysis of the deposited data

How the results depend on the processing

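The count of members called between methods was 0 without the block under every alternative. It was 1 with the replicate block (Fbxo15) and 1 with the replicate block and a pseudocount of 5 (Fbxo15). It was 2 with the replicate block and quantile normalization (Zfp42 and Utf1), and 0 with the block and a pseudocount of 0.1 or median-ratio scaling. Of all 6327 genes tested, 208, 168, 476, 8 and 64 were called in these settings, in the order named. With the block it was 0 to 3 when a number was left out: 3 without number 1 (Zfp42, Tdgf1 and Fbxo15), 0 without number 2 and 0 without number 3. Of all 6327 genes tested, 1051, 10 and 19 were called there. The member counts thus rose and fell with those of all genes and are read as no result about the members. Over all left-out libraries and numbers the median member difference was -0.52 to 0.083. The difference of Eras (-0.026) changed side to 0.033 with a pseudocount of 5 and to 0.18 with quantile normalization, with or without the replicate block, was 0.16 with the replicate block without number 3, and was -1.10 to 1.12 over left-out libraries and numbers. Other differences that changed side over these were Tdgf1 (-1.77 to 0.37), Gdf3 (-0.45 to 0.79), Tcl1 (-0.0066 to 0.64) and Zfp296 (-2.03 to 1.56), while Zfp42 (0.46 to 1.01), Utf1 (-0.84 to -0.28) and Fbxo15 (-3.18 to -0.24) did not. Tdgf1, Gdf3, Tcl1 and Zfp296 changed side only when 1 library was left out without the block. Such a fit sets unlike numbers of the 2 methods against each other. With the block and number 1, 2 or 3 left out, Zfp296 stood at -0.28, -0.084 and -0.19. The cause of the changes of side was not tested. For Tcl1 the difference was 0.62 without sonication library 1. Members differing between numbers were 5 to 7 of 8 over the alternatives that kept all 6 libraries, the 5 named ones in each. Those alternatives called 5434 to 5805 of 6327 genes tested, 8263 of 12331 with no filter and 3411 of 4023 at a mean of 10 RPKM. The count is thus read as no result about the members. Among the members, regulators and listed genes, the block changed, beside Fbxo15, the calls of Lefty1, Trap1a and Yy1 and, with no further change of setting, no other. Tests of the genes closest to each member are not given here. With 3 libraries a method the unblocked intervals were wide (-4.41 to 4.04 for Zfp296), so that the lack of calls does not show equal levels.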
